A study of Homo sapiens with 6 samples.

Results

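The genes described here are 32 genes of glycolysis and of the response to low oxygen, from glucose transporters and glycolytic enzymes to oxygen-sensing enzymes and other targets of hypoxia-inducible factor (HIF). Their members were all probe sets that the platform annotation pairs with 1 of the listed symbols. Of the 32 genes, 31 were measured, and CA9 was not among the annotated genes. They held 70 probe sets, 3 of them control probe sets of GAPDH, in a table of 54675 probe sets and 19775 tested genes. Each gene is given by its brightest probe set other than controls, the one with the highest mean over the arrays, unless another is mentioned.

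K562, an established human line from a chronic myeloid leukaemia, was nucleofected in every sample, with an siRNA that the labels call RNAi8 or with scrambled RNA, at up to 200 nM. After 24 hours they were given ATRA, that is all-trans retinoic acid, or DMSO as control. Total RNA came from 3 independent experiments. In each of them 1 siRNA sample and 1 scrambled sample were hybridised to HG-U133 Plus 2.0 arrays of Affymetrix, so that each RNA had 3 arrays. Experiments 1 and 3 had ATRA and experiment 2 had DMSO. All groups are thus 1 cell line after nucleofection, and the labels name no change of oxygen or glucose.

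Glycolysis splits glucose into pyruvate in the cytosol and yields ATP without oxygen. Glucose enters through transporters of the SLC2A family, hexokinase traps it as glucose 6-phosphate, phosphofructokinase commits it to the pathway, and lactate dehydrogenase turns pyruvate into lactate. HIF is a transcription factor whose alpha subunit is marked for degradation by prolyl hydroxylases when oxygen is present. When oxygen is short, HIF binds a short core motif near many glycolytic genes and near genes of blood vessel growth, mitophagy and its own hydroxylases, and raises their transcription.

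Values are log2 signals. Array medians lay between 5.96 and 6.02, and a gene whose mean was below the median of all probe sets (5.99) is called dim, because its signal was not shown to be above background. PRAME, the gene named in the series title, read 12.13 and 13.00 in experiment 1, 12.14 and 12.99 in experiment 2, and 12.10 and 12.70 in experiment 3 (siRNA array first, scrambled array second, in this and later such lists). With the siRNA it differed by -0.78 (limma adjusted p = 9.97e-04 with the experiment as a block and 1 without it). Experiment 3 stood apart. Its arrays correlated with the other 4 at 0.979 to 0.982 over all probe sets, against at least 0.996 between experiments 1 and 2. The signal at the 3' end of the actin control exceeded that at the 5' end by 2.98 and 3.36 there, against 0.63 to 0.92 on the other arrays, and the GAPDH gap was 1.20 and 0.74 against 0.03 to 0.08. The median gap of 8 bacterial spike-in pairs was 2.53 and 2.36 against 1.31 to 1.48. All 10 measured K562 identity genes were above the median of all probe sets (median level 9.89). Defining markers of T and NK lymphocytes, B lymphocytes, monocytes and granulocytes, and stroma had median levels of 5.63, 6.31, 5.25 and 5.90. Of these markers 3 of 9, 2 of 4, 2 of 8 and 3 of 6 were bright. The highest were CD3D (10.08), CD79A (7.09), LYZ (9.73) and COL1A1 (8.41). Those of epithelium had a median of 8.43, with 4 of 6 bright and the keratin KRT18 highest (11.95); by array it was 8.34 and 8.36 in experiment 3 and 8.44 to 8.50 on the others.

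Of the 31 measured genes, 29 were bright (background 65.1% of all genes), and ENO2 and ADM were dim. Between siRNA and scrambled arrays 0 of the 31 passed the threshold, an adjusted p below 0.05 over all genes by limma, and 0 of all genes did (0%). That fit had no block for the experiment and did not pass PRAME either. With the block 0.0253% of all genes passed, PRAME among them, and the smallest limma adjusted p of the 31 was 0.664 (BNIP3L). Between ATRA and DMSO, tested on the means of the 3 experiments, 0 of the 31 passed against 0% of all genes. That test had 1 residual degree of freedom. It did not pass even PDK4, a gene outside the set that was at least 5.24-fold higher, so the 0 says little about these genes. The genes differed mainly between experiment 3 and the other experiments. Experiment 3 against experiment 1, both with ATRA, gave 22 of 31 past the threshold (background 32.7%), 17 higher (background 21%) and 5 lower (background 11.7%). Experiment 3 against experiment 2 gave 19 (background 36.3%), 14 higher (22.6%) and 5 lower (13.7%), and experiment 1 against experiment 2 gave 0 (background 1.34%). In these last comparisons the replicates are the 2 arrays of an experiment, so the p-values measure the spread within experiments. Experiments 1 and 3 had the same treatment, whereas in a comparison with experiment 2 treatment and experiment cannot be told apart. In bulk RNA, fewer cells that express a gene and less RNA per cell cannot be told apart either.

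**Figure D1:**
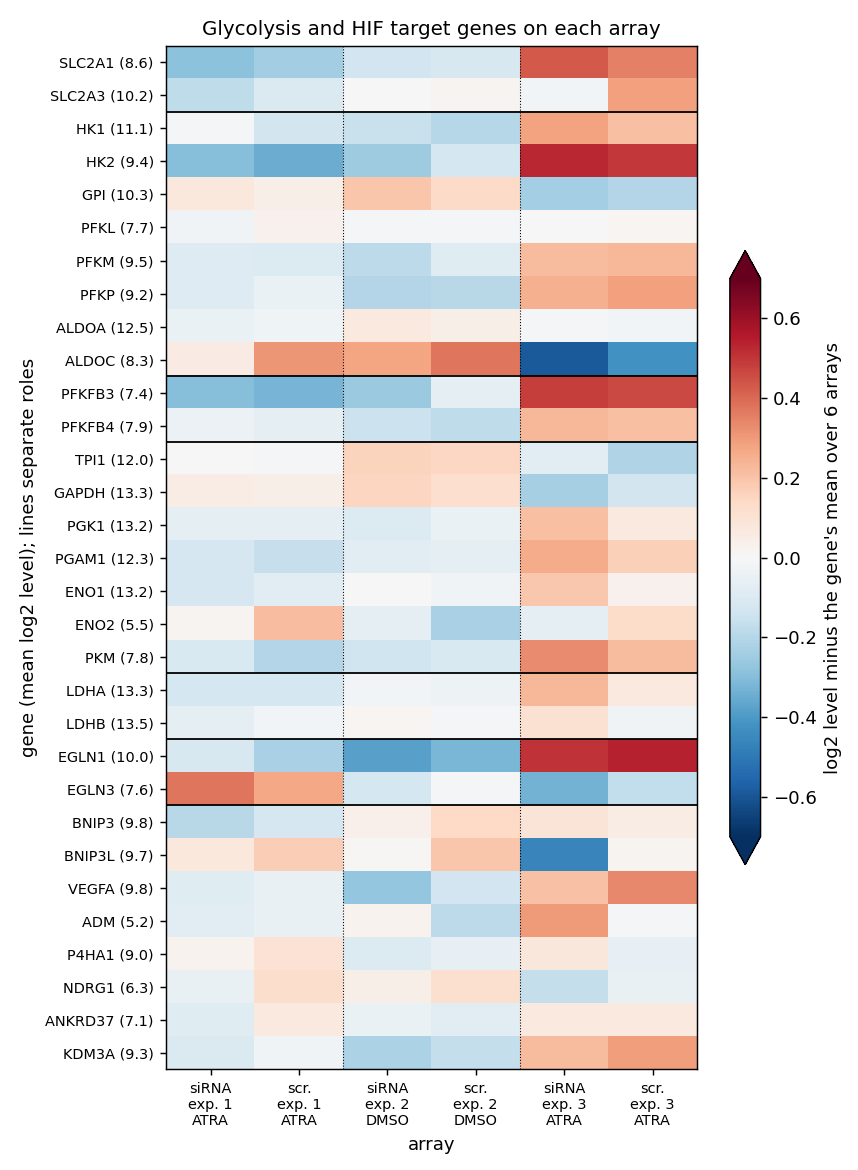
Heat map of the log2 level of each measured gene on each of the 6 arrays, minus the gene's mean over the arrays (colour scale, log2 units); rows are genes in order of role with their mean level, columns are arrays by experiment, RNA and treatment. The largest deviations lie in both columns of experiment 3, upward for HK2, PFKFB3, EGLN1 and SLC2A1 and downward for ALDOC, and the widest gap between the columns of an experiment is that of BNIP3L in experiment 3 (siRNA minus scrambled, -0.48).

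The brightest probe sets of both glucose transporters were higher in experiment 3 than in experiment 1, but for SLC2A3 the mean of all probe sets was lower. SLC2A1 encodes GLUT1, the transporter of basal glucose uptake in red cells and many tumours, and read 8.33 and 8.37 in experiment 1, 8.48 and 8.50 in experiment 2, and 9.04 and 8.97 in experiment 3. Both arrays of experiment 3 lay above the other 4, by 0.65 over experiment 1 (SE 0.07, limma adjusted p = 3.08e-05) and 0.51 over experiment 2 (adjusted p = 1.19e-04). SLC2A3 encodes the high-affinity transporter GLUT3. Its values were 10.03 and 10.11 in experiment 1, 10.20 and 10.23 in experiment 2, and 10.19 and 10.50 in experiment 3, with the scrambled array of experiment 3 highest and the siRNA array of that experiment just below both arrays of experiment 2. It was 0.27 higher in experiment 3 than in experiment 1 (adjusted p = 0.0146), but 0.15 (adjusted p = 0.110) without that scrambled array, and 0.13 above experiment 2 (adjusted p = 0.222). Its other bright probe sets were at -0.06 and -1.05 against experiment 1, and the mean of all its probe sets at -0.28 (adjusted p = 0.00827).

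Among the 8 genes from hexokinase to aldolase, HK1, HK2, PFKM and PFKP were higher in experiment 3 than in both others, GPI and ALDOC were lower, and PFKL and ALDOA passed in neither comparison. HK2, the inducible hexokinase that binds mitochondria, rose the most over experiment 1. It read 9.12 and 9.07 in experiment 1, 9.17 and 9.29 in experiment 2, and 9.94 and 9.91 in experiment 3, so both arrays of experiment 3 were above all others. The excess was 0.83 over experiment 1, or 1.78-fold (SE 0.07, limma adjusted p = 7.43e-06), and 0.70 over experiment 2 (adjusted p = 1.46e-05). The constitutive hexokinase HK1 showed a smaller step. Its levels were 11.08 and 10.96 in experiment 1, 10.93 and 10.89 in experiment 2, and 11.37 and 11.30 in experiment 3, with experiment 3 highest and experiment 2 lowest and no overlap. Differences were 0.31 against experiment 1 (adjusted p = 0.00124) and 0.42 against experiment 2 (adjusted p = 1.29e-04).

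Phosphofructokinase, which catalyses the committed step, has muscle, platelet and liver forms. The muscle form PFKM read 9.42 and 9.41 in experiment 1, 9.32 and 9.42 in experiment 2, and 9.73 and 9.74 in experiment 3, and the platelet form PFKP read 9.11 and 9.15 in experiment 1, 8.99 and 9.0 in experiment 2, and 9.45 and 9.49 in experiment 3. For both, experiment 3 did not overlap the other 4 arrays. PFKM was higher by 0.32 (adjusted p = 0.00236) and 0.36 (adjusted p = 8.90e-04) against experiments 1 and 2, and PFKP by 0.34 (adjusted p = 0.00153) and 0.47 (adjusted p = 1.26e-04). The liver form PFKL stayed between 7.72 and 7.78 on all 6 arrays, and its difference between experiments 3 and 1 was 0.00 (95% interval -0.15 to 0.16).

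Glucose phosphate isomerase, GPI, makes fructose 6-phosphate, and read 10.42 and 10.38 in experiment 1, 10.53 and 10.47 in experiment 2, and 10.10 and 10.14 in experiment 3. Here experiment 3 was lowest and experiment 2 highest without overlap. The differences were -0.28 (adjusted p = 0.00349) from experiment 1 and -0.38 (adjusted p = 3.75e-04) from experiment 2. The aldolases split fructose 1,6-bisphosphate into the triose phosphates. ALDOA, the muscle and red cell form, stayed between 12.46 and 12.58. ALDOC, the brain form and a HIF target, read 8.37 and 8.61 in experiment 1, 8.58 and 8.68 in experiment 2, and 7.72 and 7.88 in experiment 3, and both arrays of experiment 3 lay below all others. It had the largest fall of the set, -0.69 against experiment 1 (SE 0.07, adjusted p = 2.74e-05) and -0.83 against experiment 2 (adjusted p = 5.88e-06).

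PFKFB3 and PFKFB4 make and break fructose 2,6-bisphosphate, the strongest activator of phosphofructokinase, and both are HIF targets. PFKFB3 read 7.14 and 7.12 in experiment 1, 7.18 and 7.37 in experiment 2, and 7.92 and 7.90 in experiment 3, and PFKFB4 read 7.86 and 7.83 in experiment 1, 7.75 and 7.72 in experiment 2, and 8.13 and 8.11 in experiment 3. Both arrays of experiment 3 were above the other 4 for each gene. PFKFB3 was higher by 0.78 against experiment 1 (SE 0.08, adjusted p = 3.08e-05) and 0.64 against experiment 2 (adjusted p = 9.50e-05). PFKFB4 was higher by 0.28 (adjusted p = 0.00945) and 0.39 (adjusted p = 9.83e-04).

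The 7 genes from triose phosphate to pyruvate went both ways. TPI1, which interconverts the triose phosphates, read 11.98 and 11.97 in experiment 1, 12.14 and 12.13 in experiment 2, and 11.90 and 11.77 in experiment 3, with experiment 2 highest and experiment 3 lowest and no overlap. Experiment 3 differed from experiment 2 by -0.30 (adjusted p = 0.00174) and from experiment 1 by -0.14 (adjusted p = 0.0983). The third bright probe set of TPI1 (mean level 6.13) was 0.32 higher than in experiment 1, past the threshold when tested by itself. GAPDH, the dehydrogenase often used as a reference gene, read 13.33 and 13.31 in experiment 1, 13.42 and 13.39 in experiment 2, and 13.04 and 13.15 in experiment 3. It was lowest in experiment 3, with differences of -0.23 (adjusted p = 0.00808) and -0.31 (adjusted p = 8.85e-04) from experiments 1 and 2. The gap between the ends of its transcript was also widest there. The part of that gap in the result was not tested.

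PGK1, the first ATP-producing kinase of the pathway, read 13.09 and 13.09 in experiment 1, 13.06 and 13.11 in experiment 2, and 13.37 and 13.22 in experiment 3, and both arrays of experiment 3 were highest. It was 0.21 higher than in experiment 1 (adjusted p = 0.0189) and 0.21 higher than in experiment 2 (adjusted p = 0.0158). Without the siRNA array of experiment 3 these were 0.12 and 0.13, and without any 1 array of experiment 1 or 2 neither passed. PGAM1, the phosphoglycerate mutase, read 12.17 and 12.12 in experiment 1, 12.21 and 12.22 in experiment 2, and 12.55 and 12.46 in experiment 3, highest in experiment 3 by 0.36 (adjusted p = 4.16e-04) and 0.28 (adjusted p = 0.00162). ENO1, the common enolase, read 13.06 and 13.10 in experiment 1, 13.18 and 13.16 in experiment 2, and 13.37 and 13.21 in experiment 3. It was 0.21 above experiment 1 (adjusted p = 0.0192), 0.12 without the siRNA array of experiment 3, and 0.12 above experiment 2 (adjusted p = 0.151). Its next brightest probe set was at -2.77 against experiment 1, and the mean of all its probe sets at -0.62 (adjusted p = 1.28e-04). ENO2, the neuronal enolase, was dim, between 5.25 and 5.69.

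PKM, pyruvate kinase of muscle and tumours, read 7.68 and 7.59 in experiment 1, 7.65 and 7.68 in experiment 2, and 8.12 and 8.01 in experiment 3. It was higher in experiment 3 by 0.43 (adjusted p = 8.63e-04) and 0.40 (adjusted p = 0.00127), with no overlap. Of the lactate dehydrogenase subunits, LDHA is the HIF target that favours lactate formation and LDHB the heart form. LDHA read 13.17 and 13.17 in experiment 1, 13.27 and 13.26 in experiment 2, and 13.53 and 13.36 in experiment 3, and experiment 3 was highest. Its differences were 0.27 against experiment 1 (adjusted p = 0.00285) and 0.18 against experiment 2 (adjusted p = 0.0276), the second 0.10 without the siRNA array of experiment 3. LDHB ranged from 13.46 to 13.63 and passed in no comparison.

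The prolyl hydroxylases EGLN1 and EGLN3, which mark HIF alpha for degradation and are themselves HIF targets, went in opposite directions in experiment 3 against experiment 1. EGLN1, the main oxygen sensor of the family, read 9.91 and 9.79 in experiment 1, 9.64 and 9.70 in experiment 2, and 10.52 and 10.55 in experiment 3, with experiment 3 highest, experiment 2 lowest and no overlap. It was higher in experiment 3 by 0.69 than in experiment 1 (SE 0.07, adjusted p = 1.89e-05) and by 0.87 than in experiment 2 (adjusted p = 3.12e-06). EGLN3, the more inducible form, read 7.92 and 7.82 in experiment 1, 7.43 and 7.54 in experiment 2, and 7.22 and 7.38 in experiment 3. Experiment 1 was highest and experiment 3 lowest, without overlap. Experiment 3 differed by -0.57 from experiment 1 (SE 0.08, adjusted p = 2.80e-04) and -0.18 from experiment 2 (adjusted p = 0.111).

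Among the other HIF targets, KDM3A was higher in experiment 3 than in both others and BNIP3L lower, while VEGFA was higher on its brightest probe set and below 0 in its difference on the 3 others. VEGFA, the growth factor of blood vessels, read 9.69 and 9.72 in experiment 1, 9.50 and 9.64 in experiment 2, and 9.98 and 10.11 in experiment 3, highest in experiment 3 by 0.34 (adjusted p = 0.00144) and 0.47 (adjusted p = 1.14e-04). The mean of its 4 probe sets was at -0.23 against experiment 1 (adjusted p = 0.0145) and -0.19 against experiment 2 (adjusted p = 0.0350). KDM3A, a histone demethylase, read 9.19 and 9.27 in experiment 1, 9.07 and 9.13 in experiment 2, and 9.51 and 9.59 in experiment 3 and was higher by 0.32 (adjusted p = 0.00188) and 0.45 (adjusted p = 1.53e-04). On these probe sets neither gene overlapped between experiment 3 and the rest. BNIP3 and BNIP3L are mitophagy receptors, and BNIP3L clears mitochondria from maturing red cells. BNIP3 read 9.65 and 9.72 in experiment 1, 9.88 and 9.98 in experiment 2, and 9.93 and 9.89 in experiment 3, lowest in experiment 1, 0.23 below experiment 3 (adjusted p = 0.0178), and experiment 3 differed from experiment 2 by -0.02 (adjusted p = 0.869). The mean of both its probe sets was at -0.25 against experiment 1 (adjusted p = 0.0114).

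BNIP3L read 9.77 and 9.86 in experiment 1, 9.70 and 9.88 in experiment 2, and 9.23 and 9.71 in experiment 3, and only the siRNA array of experiment 3 lay apart, below the rest. The experiment differed by -0.35 from experiment 1 (adjusted p = 0.00891) and -0.32 from experiment 2 (adjusted p = 0.0124). Without that 1 array the differences were -0.18 (adjusted p = 0.0971) and -0.15 (adjusted p = 0.133). The remaining targets passed in no comparison. P4HA1, a collagen prolyl hydroxylase, read 9.05 and 9.13 in experiment 1, 8.93 and 8.97 in experiment 2, and 9.11 and 8.97 in experiment 3. The stress gene NDRG1 ranged from 6.14 to 6.43, ANKRD37 from 7.05 to 7.20, and the peptide hormone ADM, which was dim, from 5.06 to 5.54.

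**Figure D2:**
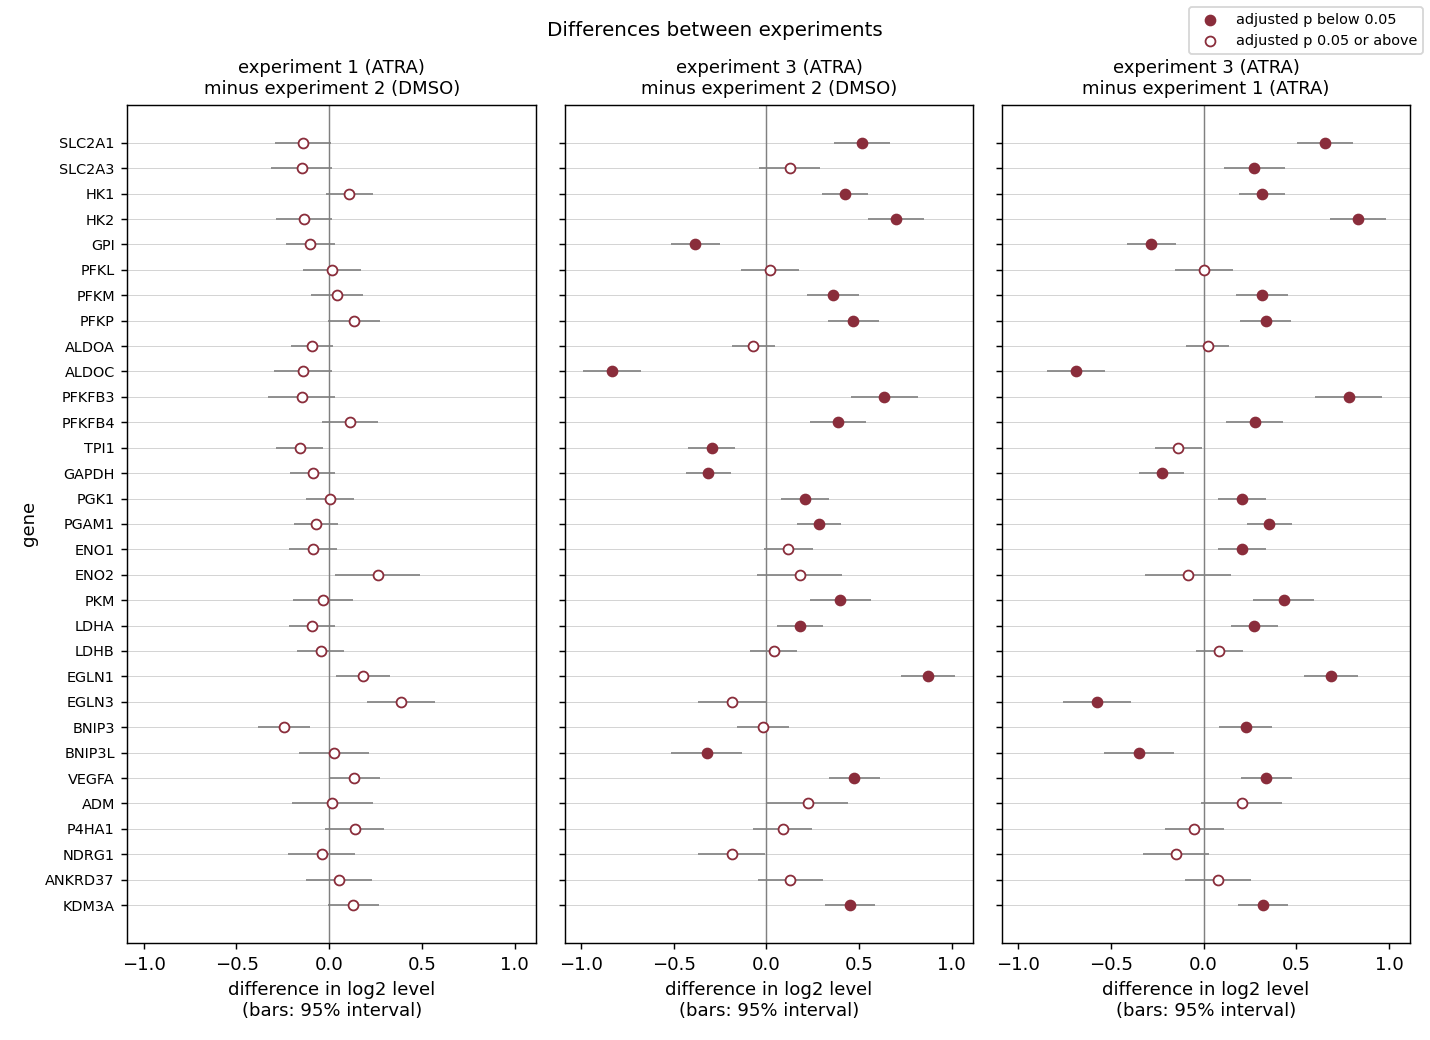
Difference in log2 level between experiments for each measured gene (points, with 95% intervals from limma as bars); filled points have an adjusted p below 0.05 over all 19775 genes. No point is filled for experiment 1 against experiment 2, whereas 19 and 22 are filled for experiment 3 against experiments 2 and 1, from ALDOC on the left (-0.83 and -0.69) to EGLN1 (0.87) and HK2 (0.83) on the right.

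In both comparisons with experiment 3, which share its arrays, 14 genes were higher (background 19.2%) and 4 lower (ALDOC, BNIP3L, GAPDH and GPI; background 9.68%). The median difference of the 31 was 0.21 against experiment 1 and 0.18 against experiment 2, beside 0.01 and -0.01 over all genes. Both arrays of experiment 3 lay above the other 4 for 15 genes (background 27.8%) and below them for 5 (background 20.7%). The counts depended on the arrays of experiment 1. Without its siRNA array 13 genes passed against experiment 1 (background 23.5%) and without its scrambled array 11 (background 22.2%), instead of 22. Against experiment 2 the count was 14 to 21 when any 1 array was left out, with a background of 23.5% to 34.3%. ALDOC, EGLN1, HK2, KDM3A, PFKFB3, PFKP, PKM and SLC2A1, 8 genes, passed in both comparisons whichever array was left out (background 15.9%). With no covariate for the RNA, BNIP3L lost its call in both comparisons and SLC2A3 against experiment 1 (adjusted p = 0.0512). The control transcripts of experiment 3 had the wide gaps given above, and their part in these differences was not tested.

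HIF binds the core motif ACGTG or GCGTG, so the RefSeq promoter windows of the genes with the largest differences in experiment 3 were read for it. Windows are 300 bases of GRCh38.p14, from 250 before to 50 after a gene's start, printed from 5′ to 3′ on the gene's strand. Capitals mark a match of ACGTG or GCGTG on either strand (as CACGT or CACGC on the other), and CACGTG counts as 2 overlapping matches. The windows shown are those of HK2 and EGLN1, with large rises, and of ALDOC and EGLN3, with the largest falls against experiment 1; of the 2 windows of HK2 the one with more matches is shown. HK2 lies at chr2:74834920-74835219 (plus strand), EGLN1 at chr1:231422238-231422537 (minus), ALDOC at chr17:28576846-28577145 (minus) and EGLN3 at chr14:33951025-33951324 (minus).
HK2: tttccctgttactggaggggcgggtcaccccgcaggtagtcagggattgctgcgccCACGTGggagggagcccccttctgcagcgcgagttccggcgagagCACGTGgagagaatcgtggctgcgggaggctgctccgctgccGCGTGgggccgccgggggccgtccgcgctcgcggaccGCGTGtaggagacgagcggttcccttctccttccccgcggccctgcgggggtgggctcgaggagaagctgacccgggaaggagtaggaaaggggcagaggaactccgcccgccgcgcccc
EGLN1: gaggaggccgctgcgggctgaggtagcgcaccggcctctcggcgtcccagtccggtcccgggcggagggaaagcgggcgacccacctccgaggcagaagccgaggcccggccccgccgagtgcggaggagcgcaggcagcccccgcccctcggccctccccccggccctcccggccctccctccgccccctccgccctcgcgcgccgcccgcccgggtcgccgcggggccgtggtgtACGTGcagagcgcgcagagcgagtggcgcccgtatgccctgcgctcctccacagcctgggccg
ALDOC: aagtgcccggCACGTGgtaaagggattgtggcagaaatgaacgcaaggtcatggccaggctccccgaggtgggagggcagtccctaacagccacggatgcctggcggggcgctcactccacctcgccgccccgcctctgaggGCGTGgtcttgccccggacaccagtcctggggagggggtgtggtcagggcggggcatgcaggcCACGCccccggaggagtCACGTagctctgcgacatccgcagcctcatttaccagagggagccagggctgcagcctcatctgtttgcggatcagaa
EGLN3: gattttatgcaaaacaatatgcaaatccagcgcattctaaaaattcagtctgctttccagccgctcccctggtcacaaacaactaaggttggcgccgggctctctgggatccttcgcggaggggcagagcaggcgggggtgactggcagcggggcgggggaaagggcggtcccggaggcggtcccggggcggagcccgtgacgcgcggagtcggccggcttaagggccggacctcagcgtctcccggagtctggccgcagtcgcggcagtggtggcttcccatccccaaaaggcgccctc
The HK2 window held 6 matches, that of ALDOC 5, that of EGLN1 1 and that of EGLN3 0. In all, 50 windows of 28 members were matched by symbol, and 35 of them (70.0%) held the motif, against 48.4% of 35116 windows. A match is a description of letters, not a binding site. Windows of 1 gene overlap in part, and HK1 and PFKM gave 7 windows each. The genes were listed as genes of glycolysis and HIF targets, so these shares do not test a part of HIF in the differences. BNIP3L, NDRG1, SLC2A3 and VEGFA were not matched.

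Between experiment 1 (ATRA) and experiment 2 (DMSO), 0 of 31 genes passed, and 15 lay above and 16 below 0, with a median of -0.03 beside -0.01 over all genes. EGLN3 came nearest, higher by 0.39 with ATRA (SE 0.08, limma adjusted p = 0.0524). Both arrays of experiment 1 were above the other 4. It passed when only bright genes were tested (adjusted p = 0.0305), after repeated quantile normalization (0.0484) or median centring (0.0393), and its second bright probe set differed by 0.34. Experiment 3, also with ATRA, had the lowest EGLN3 level of the 3 experiments.

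At an unadjusted p below 0.05 there were 5 genes (background 12%), with EGLN3, EGLN1 and the dim ENO2 higher (background 7.68%) and BNIP3 and TPI1 lower (background 4.35%). EGLN1 was at 0.18 (adjusted p = 0.297) and BNIP3 at -0.24 (adjusted p = 0.115), with -0.27 on its second probe set. TPI1 was at -0.16, PFKFB3 and SLC2A3 at -0.15 and -0.15, and VEGFA and P4HA1 at 0.14 and 0.14. None of these passed after adjustment.

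With the experiment as the replicate, ATRA was tested on 2 experiments against 1. Of the 31 genes, 21 were above and 10 below 0, with a median of 0.11 beside -0.01 over all genes, and 0 had an unadjusted p below 0.05 (background 1.19%). EGLN1 had the largest positive difference, 0.53 (SE 0.42, 95% interval -0.65 to 1.70), and ALDOC the largest negative, -0.49 (SE 0.39, 95% interval -1.59 to 0.62). For EGLN1 both ATRA experiments lay above the DMSO experiment, by 0.18 and 0.87. VEGFA, PFKP and KDM3A were at 0.31, 0.30 and 0.29, and GPI, TPI1 and GAPDH at -0.24, -0.23 and -0.20, all with an adjusted p of 0.995.

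Some genes did not overlap between the DMSO arrays and the ATRA arrays. Both DMSO arrays lay below the 4 ATRA arrays for 8 genes (background 13.5%), EGLN1, ENO2, HK1, KDM3A, P4HA1, PFKFB4, PFKP and VEGFA. They lay above them for 4 genes (background 13.2%), ALDOA, GAPDH, GPI and TPI1.

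Differences between siRNA and scrambled arrays were small beside those between experiment 3 and the other experiments. Those between experiments 1 and 2 were nearer in size, from -0.24 (BNIP3) to 0.39 (EGLN3). The 31 differences, siRNA minus scrambled with treatment as a covariate, ranged from -0.25 to 0.17, and 26 were smaller than 0.1 in size. They lay above 0 for 15 genes and below for 16, with a median of -0.01 beside 0.01 over all genes. None had an unadjusted p below 0.05 (background 1.29%). With the experiment as a block, 0 passed after adjustment (background 0.0253%) and 2, BNIP3L and ALDOC, had an unadjusted p below 0.05 (background 6.41%). The blocked 95% intervals of the bright genes ran from -0.41 (BNIP3L) to 0.19 (PKM), and the unblocked ones from -0.81 (ALDOC) to 0.75 (HK2).

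BNIP3L had the largest difference, -0.25 (SE 0.17, or 0.07 with the block; blocked limma adjusted p = 0.664). The siRNA array was lower in 3 of 3 experiments, with differences of -0.10, -0.19 and -0.48, and of -0.20, -0.10 and -0.49 on its second probe set. Groups overlapped nonetheless, and without the siRNA array of experiment 3 the unblocked difference was -0.09. ALDOC was at -0.17 (blocked SE 0.06, limma adjusted p = 0.771), with -0.25, -0.10 and -0.16 in the 3 experiments. In the fit without the block, its sign turned without the scrambled array of experiment 1 (0.05) or the siRNA array of experiment 3 (0.02). Such a fit leaves 1 array without its partner, so differences between experiments enter the siRNA difference.

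SLC2A3 was at -0.13, with -0.07, -0.02 and -0.30 by experiment, but its other bright probe sets were at -0.03 and 0.01. NDRG1 read 6.25 and 6.43 in experiment 1, 6.35 and 6.41 in experiment 2, and 6.14 and 6.25 in experiment 3, a difference of -0.12 that was below 0 in each experiment. On the other side HK1 was at 0.08 with 0.12, 0.04 and 0.07, and LDHA, PKM and TPI1 at 0.06, 0.06 and 0.05. In all, 7 genes were lower with the siRNA in 3 of 3 experiments (ALDOC, BNIP3L, KDM3A, NDRG1, PFKP, SLC2A3 and VEGFA; background 11.9%) and 4 were higher (HK1, LDHA, PFKFB4 and TPI1; background 13.1%). The dim ADM had the highest value, 0.17 (adjusted p = 1).

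**Figure D3:**
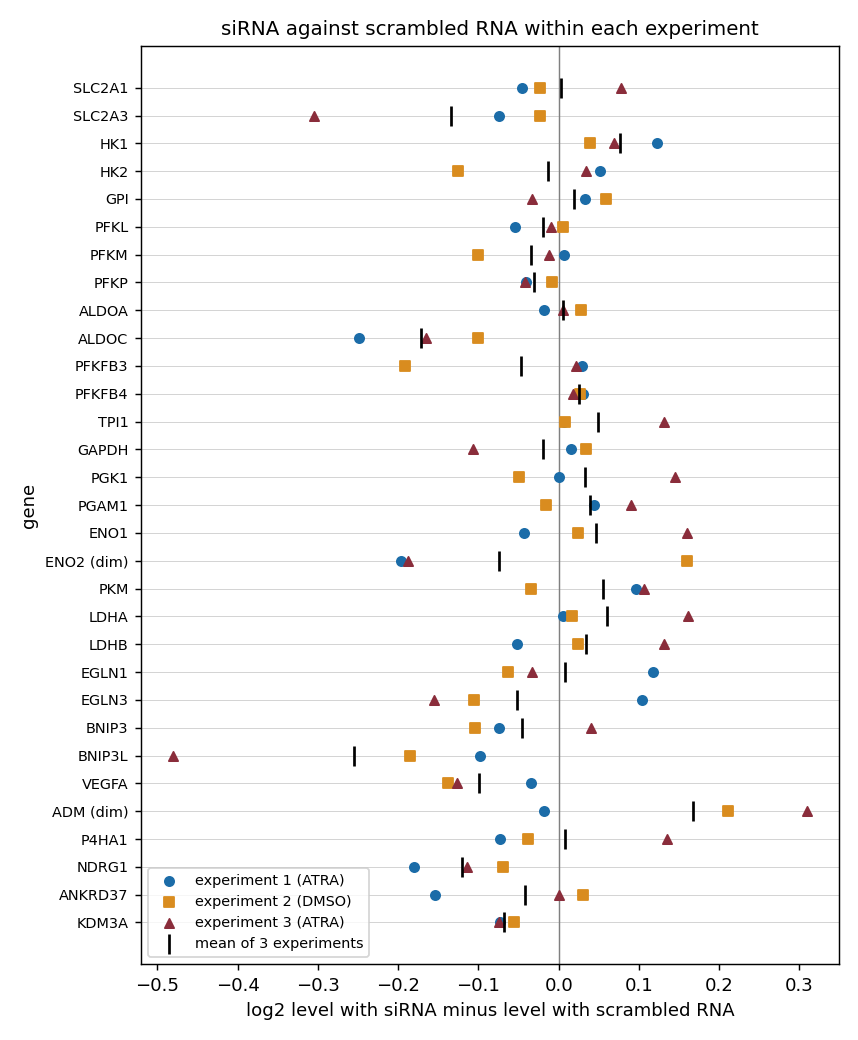
Log2 level with siRNA minus level with scrambled RNA for each measured gene, in experiment 1 (circles), experiment 2 (squares) and experiment 3 (triangles), with their mean (bars). Most means lie within 0.1 of 0, BNIP3L (-0.25), ALDOC (-0.17) and SLC2A3 (-0.13) are lowest, and for BNIP3L and SLC2A3 the value of experiment 3 lies farthest out.

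The dependence of the siRNA difference on ATRA was tested as the difference under ATRA minus that under DMSO. None of the 31 passed, either with or without the experiment as a block (background 0%). Only the dim ENO2 had an unadjusted p below 0.05 (background 1.32%), and with the block it was again the only one (background 3.31%). It was at -0.35 (limma adjusted p = 1). The siRNA difference was -0.20 and -0.19 in the ATRA experiments and 0.16 under DMSO. Among bright genes PFKFB3 (0.22), HK2 (0.17), PKM (0.14) and PGK1 (0.12) were highest. SLC2A3 (-0.17), ANKRD37 (-0.11), ALDOC (-0.11) and BNIP3L (-0.10) were lowest. ANKRD37, an ankyrin repeat protein and HIF target, read 7.05 and 7.20 in experiment 1, 7.09 and 7.06 in experiment 2, and 7.20 and 7.20 in experiment 3. The DMSO difference rests on 1 array of each kind, and the unblocked interval for HK2 ran from -1.95 to 2.29.

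Probe sets of 1 gene did not always move together in experiment 3. With each probe set tested by itself, 41 of the 67 passed against experiment 1 (background 30.3%) and 39 against experiment 2 (background 33.8%). Of the 31 genes, 16 had 2 or more bright probe sets. In 7 of these (43.8%) some bright probe sets were higher and others lower in experiment 3 than the mean of experiments 1 and 2, against 56.0% of all 5798 such genes. The median distance between the extreme probe sets of a gene was 0.43, beside 0.46 over all such genes. For experiment 1 against 2 it was 0.14, beside 0.10. Probe sets whose names end in x_at or s_at hold probes that can match other transcripts or several transcripts of a family.

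ENO1 had the widest spread. While the probe set used above was slightly higher in experiment 3, the next brightest read 12.76 and 12.74 in experiment 1, 12.95 and 12.88 in experiment 2 and 10.05 and 9.92 in experiment 3, a difference of -2.77 from experiment 1 (limma adjusted p = 2.75e-08 over all probe sets). The third bright one was at 0.42. BNIP3L fell on both of its probe sets. On the second of them it read 9.77 and 9.97, 10.02 and 10.12, and 7.63 and 8.12, and experiment 3 did not overlap the others (-2.00 against experiment 1, adjusted p = 8.10e-07).

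Another probe set of SLC2A3, the third in brightness, read 9.14 and 9.10, 9.09 and 9.14, and 8.09 and 8.05, which is -1.05 against experiment 1, whereas the set used above was 0.27 higher. BNIP3 went down on its second probe set, from 8.21 and 8.29 in experiment 1 to 7.47 and 7.56 in experiment 3 (-0.73). VEGFA had negative differences on 3 of its 4 probe sets, -0.20, -0.50 and -0.57 against experiment 1, the last 2 past the threshold, where its brightest set was at 0.34. PGK1 was at -0.33 on its second brightest probe set and at 0.35 on the third. Against experiment 1, SLC2A3, PGK1, ENO1, BNIP3 and VEGFA, 5 genes, thus passed in both directions, and against experiment 2, PGK1, ENO1 and VEGFA did.

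With the mean of all probe sets in place of 1, the differences from experiment 1 thus turned for BNIP3, ENO1, SLC2A3 and VEGFA. Those of EGLN1 and BNIP3L became 0.21 and -1.17, and those of SLC2A1, PFKP and PFKFB4 0.38, 0.17 and 0.13. PFKP and PFKFB4 no longer passed (limma adjusted p = 0.0590 and 0.157), nor did PGK1 (0.09, adjusted p = 0.423). Against experiment 2, PFKFB4 (0.15), PGK1 (0.04), LDHA (0.18) and TPI1 (-0.09) lost their calls. Every bright probe set was higher in experiment 3 than in both others for HK2 and PKM. Every bright one was lower for GAPDH, its control probe sets not counted, and for BNIP3L, and for EGLN3 against experiment 1. The 13 genes with 1 bright probe set had no second reading; 8 of these were higher in experiment 3 than in experiment 1, and GPI and ALDOC were lower.

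GAPDH has control probe sets at the 3' end, the middle and the 5' end of its transcript. Its 3' control probe set read 13.29, 13.25, 13.33 and 13.35 in experiments 1 and 2 and 13.24 and 13.24 in experiment 3. The middle one read 13.29 to 13.41 in experiments 1 and 2 and 12.58 and 12.84 in experiment 3. The 5' one read 13.21 to 13.29 in experiments 1 and 2 and 12.04 and 12.50 in experiment 3. The 3' signal of experiment 3 was thus close to that of the other arrays and the 5' signal lower. Positions of the other probe sets along their transcripts were not used here, and the part of position in their differences was not tested.

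**Figure D4:**
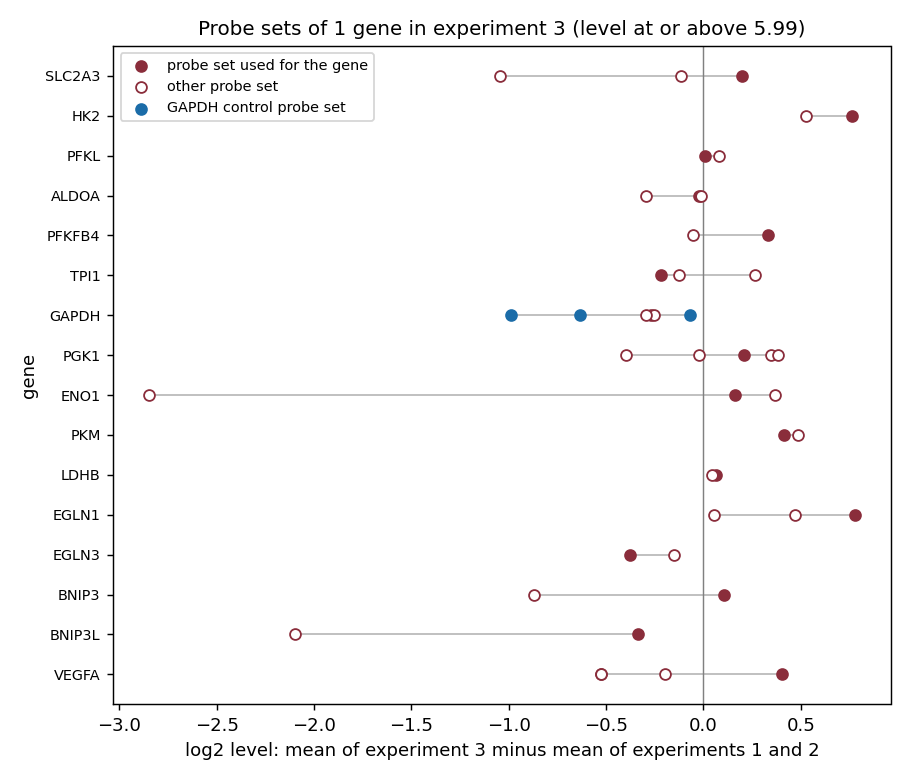
Each point is a bright probe set of 1 of 16 genes, placed by its mean log2 level in experiment 3 minus the mean of experiments 1 and 2 (filled, the set used for the gene; blue, the 3 GAPDH control sets). Probe sets of HK2 and PKM lie on the right, those of GAPDH and BNIP3L on the left, and those of ENO1 reach from -2.85 to 0.37.

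Other genes of the pathway, from lists named by function, were read in the same fits. Of the measured genes of these lists, whose numbers are given below, 6 passed between experiment 1 (ATRA) and experiment 2 (DMSO). All were higher in experiment 1 (background 1.11%). PDK4, the kinase that switches off pyruvate dehydrogenase, read 8.14 and 8.24 in experiment 1, 5.31 and 5.62 in experiment 2, and 8.36 and 8.79 in experiment 3, so the 4 ATRA arrays were above both DMSO arrays. Its DMSO level was dim, and counted from the median of all probe sets the level of experiment 1 was at least 4.59-fold higher (limma adjusted p = 8.03e-08) and that of experiment 3 at least 6.00-fold. The transporter SLC2A12 was 0.82 higher, galactose mutarotase GALM 0.71, the repressor BHLHE40 0.62, the collagen hydroxylase P4HA2 0.50 and EPAS1, which encodes another HIF alpha subunit, 0.31. SLC2A12, BHLHE40 and P4HA2 were higher in experiment 3 as well (0.97, 0.24 and 0.25 against experiment 2), while GALM was lower there (-0.20). EPAS1 was at -0.08 (adjusted p = 0.394).

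In experiment 3 against experiment 1, pyruvate dehydrogenase and its regulators had 8 of 11 measured genes higher and 0 lower, beside 21% higher and 11.7% lower of all genes, among them PDK1 (0.65) and DLAT (0.40), a subunit of the complex. Oxygen sensing and HIF subunits had 4 higher and 7 lower of 15. HIF1A, the gene of the best known HIF alpha subunit, read 8.99 and 8.80 in experiment 1, 8.85 and 8.82 in experiment 2, and 9.57 and 9.53 in experiment 3. It was 0.66 higher (adjusted p = 2.92e-05). VHL, the ligase subunit that recognises hydroxylated HIF alpha, was at -0.76 (adjusted p = 0.00259). It read 8.21 and 8.04 in experiment 1, 8.07 and 8.02 in experiment 2, and 7.04 and 7.69 in experiment 3. The siRNA array of experiment 3 was thus lowest, -0.65 from its scrambled partner. Other HIF target genes had 14 higher and 7 lower of 43, with STC2 (1.22) and TFRC (0.48) higher and DDIT4 (-0.32) and MIF (-0.27) lower. Of other glycolytic enzymes 5 of 19 were higher and 2 lower. Transport genes had 2 higher and 2 lower of 14, with BSG, the chaperone of lactate transporters, at -1.06. The pentose phosphate enzymes had 3 higher and 2 lower of 6, with PGD at -0.75, and the gluconeogenic enzymes 3 higher and 0 lower of 7.

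Against experiment 2 the same lists gave, as higher and lower, 7 and 0 of 11 for pyruvate dehydrogenase, 3 and 6 of 15 for oxygen sensing and 17 and 5 of 43 for other HIF targets, beside 22.6% and 13.7% of all genes. They gave 5 and 3 of 19 for other enzymes, 4 and 2 of 14 for transport, 3 and 2 of 6 for pentose phosphate enzymes and 3 and 0 of 7 for gluconeogenic enzymes. Between siRNA and scrambled RNA 0 genes of any list passed, with or without the block. In ATRA against DMSO over the experiment means the difference was at least 5.24-fold for PDK4 and 0.89 on the log2 scale for SLC2A12, each with an adjusted p of 0.995.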

How the data were processed

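The 6 arrays are K562 samples of 3 independent experiments. The deposited values are log2 expression that the authors obtained with the RMA algorithm in BRB-ArrayTools, per the labels and the series' design text. The version used is not given in the sources used here, nor are settings. The platform annotation paired 41091 probe sets with 1 gene, 1801 with several (not used) and 11721 with none; 19735 of 19775 genes were found in the RefSeq gene table.

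Linear models were fitted with limma 3.58.1 (R 4.3.3) by lmFit and by eBayes with an intensity trend; p-values of the 19775 genes were adjusted together by the Benjamini-Hochberg method and called below 0.05. The model for the siRNA had treatment as covariate and 3 residual degrees of freedom, the 4-group test of its dependence on ATRA 2, ATRA against DMSO on experiment means 1, and the experiment contrasts, with RNA as covariate, 2. In the 4-group test a DMSO group holds a lone array, whose spread is taken to be that of the ATRA groups. The scripts were tested on simulated data.

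The experiment numbers pair the arrays: the labels name independent experiments, and deviations from group means correlated at 0.679, 0.795 and 0.883 within numbers. Across numbers 1 and 2 they correlated at 0.402 and 0.534, and across number 3 and the others negatively. Experiment 3 stood apart and enters all these values, so they say little about the pairing of experiments 1 and 2. Alternatives were the replicate block, other probe set rules, bright genes only (the median of all probe sets or above), no trend, renormalization, other blocks or covariates for the treatment and experiment contrasts, and leaving out arrays.

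The members and lists were chosen with earlier results of these data known. All members are named, with values on every array for those past the threshold or among the 4 largest differences each way; of other pathway genes, a selection of those past the threshold or with the smallest p. The number of arrays limits the precision.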

Additional observations from a re-analysis of the deposited data

How the results depend on the processing

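Over the comparisons, 73 named differences were recomputed under 932 combinations with an alternative. Of these, 844 kept their direction and side of the threshold, 3 gained a call and 28 changed sign. The other 57 lost their call, 43 when 1 array was left out and 14 otherwise. All 57 losses fell in the comparisons with experiment 3. No gene of the set passed in the other comparisons, so no call could be lost there. The counts for siRNA, its dependence on ATRA, and ATRA against DMSO were 0 under every alternative run. The replicate block, given beside the siRNA results, changed no call of a gene of the set, whereas PRAME, outside the set, passed only with it. Experiment 1 against 2 gave 0 genes, and 1 (EGLN3) with bright genes only, after repeated quantile normalization or with median-centred arrays. With every probe set tested by itself, 39 of 67 passed in experiment 3 against 2 and 41 against 1; when 1 array was left out the gene counts were 14 to 21 and 11 to 21.

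With the mean of all probe sets the sign changed for PKM in the siRNA test (-0.0339), ANKRD37 in its dependence on ATRA (0.0182), VEGFA in ATRA against DMSO (-0.0688) and in experiment 3 against 2 (-0.19), and BNIP3 (-0.25), ENO1 (-0.62), SLC2A3 (-0.28) and VEGFA (-0.23) in experiment 3 against 1; the cause was not tested. Leaving out arrays in fits without the block gave ranges across 0 in the siRNA test for ALDOC (-0.37 to 0.0480), HK1 (-0.0261 to 0.17), LDHA (-0.0464 to 0.16), PKM (-0.0820 to 0.17) and TPI1 (-0.0142 to 0.10). In its dependence on ATRA they were SLC2A3 (-0.36 to 0.0288), ALDOC (-0.47 to 0.26), BNIP3L (-0.37 to 0.17), PFKFB3 (-0.18 to 0.61), HK2 (-0.25 to 0.59), PKM (-0.0825 to 0.35) and PGK1 (-0.0165 to 0.26). These fits leave 1 array without its partner, so differences between experiments enter. The ranges do not measure the spread of the differences within experiments.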
